A study of Homo sapiens with 4 samples.

Results

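The 10 keratin genes KRT5, KRT14, KRT6A, KRT6B, KRT16, KRT17, KRT13, KRT8, KRT18 and KRT19 were followed in CAL27 cells, an established human line of oral squamous cell carcinoma. They were taken by gene name from a table of 29437 genes, and all 10 were listed. The groups were 2 libraries of cells labelled CCL20-overexpression, made with a lentivirus, and 2 libraries labelled negative control; the sources used here do not give the vector of the controls. CCL20 is a secreted chemokine. All cells came from the same parental line and were lysed after 48 hours for sequencing of polyadenylated RNA. The labels do not say whether replicates were separate cultures, and p-values measure only the spread between these libraries, which may be technical. In bulk RNA, fewer cells of a kind and less RNA per cell cannot be told apart.

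Keratins are the intermediate filament proteins of epithelial cells. Every filament is built from a type I (acidic) and a type II (basic) keratin, and cells make them in matched pairs that mark the kind of epithelium. KRT5 and KRT14 form the network of basal cells in stratified epithelium. KRT6A, KRT6B, KRT16 and KRT17 are scarce in resting epidermis and appear in wounds, hyperproliferation and squamous carcinoma. KRT13 marks the differentiating layers of oral mucosa, where its partner is KRT4. KRT8 and KRT18 are the pair of simple epithelium and are often made again in carcinomas, and KRT19 is a small type I keratin that can also pair with KRT8.

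Total counts lay between 13681862 and 17860695 per library. CCL20 had 372 and 303 counts in the CCL20-overexpression libraries and 188 and 202 in the controls (log2 fold change 0.95, SE 0.21, edgeR adjusted p = 0.0143), but its call ended once mRNA length was corrected for (0.03, edgeR adjusted p = 0.956). Across 10571 coding genes the log2 fold change had a Spearman correlation of -0.73 with mRNA length, and short mRNAs were the higher ones with CCL20 overexpression. Averaged over counted reads, gene length was 5313 and 5013 nt in the CCL20-overexpression libraries and 6226 and 6130 nt in the controls. Markers of squamous epithelium were present, with 7 of 8 at a mean of 1 FPKM or more and KRT14 below it. FPKM is the count scaled to exonic gene length and to all counted reads of the library. In fibroblast, endothelial, leukocyte and melanocyte lists 1 of 6, 1 of 4, 0 of 4 and 1 of 4 markers reached that level. The leukocyte markers summed to 0.137 and 0.263 FPKM in the CCL20-overexpression libraries and 0.154 and 0.144 in the controls. The endothelial list summed to 5.27 and 5.10 FPKM with CCL20 overexpression and 8.81 and 8.23 in the controls, nearly all of it CDH5, while PECAM1, KDR and VWF were each under 0.2 FPKM in every library; the part of this in the results was not tested.

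Several of these genes are close copies, and the sequences show how far reads can tell them apart. The coding sequences of KRT6A and KRT6B were 97.5% identical over 1692 aligned bases, with a longest identical run of 137 bases. KRT14 and KRT16 were 87.6% identical over 1392 bases, with a run of 158 bases, and KRT14 and KRT17 were 83.8% identical. The 60 coding bases within an exon where KRT6A and KRT6B differ most are shown, with the same place in KRT5 for comparison; capitals mark bases that differ from KRT6A (GENCODE 29 transcripts, GRCh38, minus strand, 5′ to 3′). They lie at chr12:52491555-52491614 in KRT6A, chr12:52450439-52450498 in KRT6B and chr12:52518979-52519038 in KRT5.
KRT6A: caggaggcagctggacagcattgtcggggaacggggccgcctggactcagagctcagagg
KRT6B: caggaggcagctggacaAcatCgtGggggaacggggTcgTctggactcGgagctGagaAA
KRT5: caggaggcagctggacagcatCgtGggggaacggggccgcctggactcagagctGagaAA

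Even in this window KRT6B differed from KRT6A at 9 of 60 bases, and KRT5 differed from KRT6A at 5. The matching type I window was chosen where KRT14 and KRT16 differ most, with capitals marking bases that differ from KRT14 (minus strand, 5′ to 3′). It lies at chr17:41583585-41583644 in KRT14, chr17:41610888-41610947 in KRT16 and chr17:41621000-41621059 in KRT17.
KRT14: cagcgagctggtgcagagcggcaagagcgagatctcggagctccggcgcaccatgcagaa
KRT16: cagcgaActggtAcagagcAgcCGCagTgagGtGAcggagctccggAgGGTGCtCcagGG
KRT17: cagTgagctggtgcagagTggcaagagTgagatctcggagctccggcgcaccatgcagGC

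Here KRT16 differed from KRT14 at 19 bases, while KRT17 differed at 5. Of all stretches of 50 nt in each mRNA, 47.1% of those in KRT6B and 39.1% of those in KRT6A also occurred, on either strand, in a transcript of another gene. For KRT14, KRT16 and KRT17 these shares were 23.8%, 22.0% and 15.98%, for KRT5 they were 3.99%, and for KRT19 they were 1.79%. KRT8 had 36.9%, with 19.0% of all its stretches in the pseudogene KRT8P3. KRT18 had 47.6%, of which a KRT8 transcript on the opposite strand held 21.5% of all stretches. KRT6C held 35.2% of all stretches of KRT6A and 44.8% of those of KRT6B. It had 1 and 4 counts with CCL20 overexpression and 2 and 5 in the controls. The sources used here do not say how reads that fit several genes were counted. The levels of KRT6A, KRT6B, KRT14, KRT16, KRT8 and KRT18 are therefore uncertain, by an amount that these shares of 50 nt stretches do not measure.

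KRT5 was the most abundant of the 10, and its textbook partner KRT14 was nearly missing. KRT5 (ENSG00000186081, chr12:52514575-52520687) had 362 and 521 FPKM in the CCL20-overexpression libraries and 439 and 467 FPKM in the controls. The groups overlapped, and the gap between the CCL20-overexpression libraries was wider than that between the groups. KRT5 did not pass the test (log2 fold change 0.18, SE 0.22, edgeR adjusted p = 0.544), and its sign turned with the scale, to -0.04 on total counts and -0.34 on a TPM scale. KRT5 was called higher without CCL20-overexpression replicate 1 (0.45, edgeR adjusted p = 0.00225) and was not called without replicate 2 (-0.17, edgeR adjusted p = 0.281). These scales move the median of all genes to -0.21 and -0.49, so that KRT5 was 0.17 and 0.15 above the median gene. KRT14 (ENSG00000186847, chr17:41582279-41586921) had 39 and 42 counts with CCL20 overexpression and 24 and 29 in the controls, or 1.11 and 1.09 FPKM against 0.769 and 0.712 FPKM. Both CCL20-overexpression libraries were above both controls, but its mean of 0.921 FPKM was below the filter of 1 FPKM for the main test. Without that filter KRT14 did not pass (log2 fold change 0.83, SE 0.41, edgeR adjusted p = 0.177; 0.42, edgeR adjusted p = 0.606 with the mRNA length correction). KRT5 was thus 325 and 477 times the FPKM of KRT14 in the CCL20-overexpression libraries and 571 and 656 times in the controls.

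**Figure D1:**
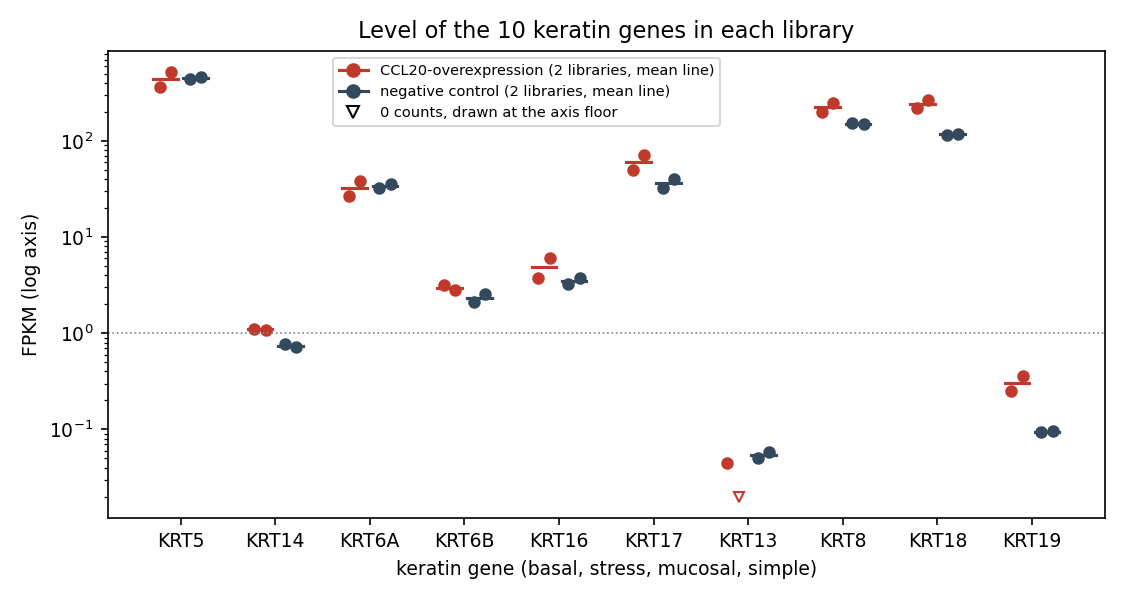
FPKM on a log axis for the 10 keratin genes in each library, with the mean of each group as a line; the dotted line marks 1 FPKM and the open triangle a library with 0 counts. KRT5, KRT8 and KRT18 lie above 100 FPKM, KRT14 lies near 1 and KRT13 and KRT19 lie below it; the groups overlap for KRT5 and KRT6A.

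Among the stress keratins, KRT17 rose and KRT6A, KRT6B and KRT16 did not pass the test. KRT17 (ENSG00000128422, chr17:41619441-41624842), a type I keratin quickly induced in injured skin, had 49.4 and 70.7 FPKM with CCL20 overexpression and 32.6 and 39.9 FPKM in the controls. Both CCL20-overexpression libraries were above both controls, and KRT17 rose 1.92-fold (log2 difference 0.94, SE 0.23, edgeR adjusted p = 0.0190). The call ended with the mRNA length correction (0.38, edgeR adjusted p = 0.293) and without control replicate 1 or 2 (0.80 and 1.10, edgeR adjusted p = 0.219 and 0.0688). It also ended with the exonic length correction (0.59, edgeR adjusted p = 0.0990), with TPM scaling (0.43, edgeR adjusted p = 0.135) and with limma at a pseudocount of 0.1 (0.71, limma adjusted p = 0.0547). The call held with the mRNA length correction and no filter on low values (0.55, edgeR adjusted p = 0.0279). Over 16 other settings the log2 fold change lay between 0.38 and 1.21 and the adjusted p between 3.04e-25 and 0.293.

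KRT6A, the type II keratin induced at wound edges, had 26.7 and 38.1 FPKM with CCL20 overexpression and 32.1 and 35.3 FPKM in the controls. The controls fell between the CCL20-overexpression libraries (log2 fold change 0.16, SE 0.22, edgeR adjusted p = 0.597), and the sign turned on total counts (-0.06), on a TPM scale (-0.35) and with the mRNA length correction (-0.04). KRT6A was called higher without CCL20-overexpression replicate 1 (0.43, edgeR adjusted p = 0.000614) and not without replicate 2 (-0.18, edgeR adjusted p = 0.221). KRT16, the usual type I partner of KRT6A, had 3.76 and 6.08 FPKM with CCL20 overexpression and 3.25 and 3.76 FPKM in the controls. Its highest control library lay just below the lower CCL20-overexpression library (log2 fold change 0.71, SE 0.29, edgeR adjusted p = 0.0955). KRT16 passed with a replicate block (edgeR adjusted p = 0.0128), with no filter on low values (0.0227) and without CCL20-overexpression replicate 1 (4.72e-06), and it reached 0.736 with the mRNA length correction. KRT6B had 111 and 108 counts with CCL20 overexpression and 66 and 105 in the controls, or 3.17 and 2.81 FPKM against 2.11 and 2.58 FPKM (log2 fold change 0.55, SE 0.25, edgeR adjusted p = 0.128).

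The simple keratins KRT8 and KRT18 rose, KRT18 the more of the pair except with the exonic length correction. KRT18 (ENSG00000111057, chr12:52948871-52952901, plus strand) had 222 and 266 FPKM in the CCL20-overexpression libraries and 115 and 119 FPKM in the controls. The groups were far apart relative to the spread within them, with means of 244 ± 31.3 and 117 ± 2.80 FPKM (SD, n = 2 each). KRT18 rose 2.42-fold (log2 difference 1.28, SE 0.18, edgeR adjusted p = 0.00442). Corrected for mRNA length, KRT18 still passed (0.67, SE 0.15, edgeR adjusted p = 0.0354), and it was past it in all 16 other settings run, with log2 fold changes of 0.67 to 1.44 and adjusted p of 7.00e-32 to 0.0354.

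KRT8 (ENSG00000170421, chr12:52897187-52949954, minus strand) had 199.5 and 246 FPKM with CCL20 overexpression and 154 and 148 FPKM in the controls. Both CCL20-overexpression libraries were above both controls, and KRT8 rose 1.71-fold (log2 difference 0.77, SE 0.18, edgeR adjusted p = 0.0163). Its call ended with the mRNA length correction (0.37, edgeR adjusted p = 0.194), at TPM scaling (0.26, edgeR adjusted p = 0.193) and without control replicate 1 or 2 (0.795 and 0.745, edgeR adjusted p = 0.164 and 0.174). With the exonic length correction the call held and the change was larger (1.03, edgeR adjusted p = 0.0159), above KRT18 at 0.94 in that fit. The KRT8 call also held with the mRNA length correction and no filter on low values (0.49, edgeR adjusted p = 0.0196). Over 16 other settings its adjusted p lay between 1.35e-12 and 0.194. KRT8 and KRT18 lie side by side and their gene spans overlap by 1084 nt on opposite strands, so without a known strand setting reads there cannot be assigned with certainty.

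KRT19 and KRT13 were close to the detection limit. KRT19, on chr17:41523617-41528308, had 9 and 14 counts with CCL20 overexpression and 3 and 4 in the controls, or 0.251 and 0.355 FPKM against 0.0939 and 0.0959 FPKM. Both CCL20-overexpression libraries were above both controls, but with so few reads KRT19 did not pass without the filter (log2 fold change 1.90, SE 0.96, edgeR adjusted p = 0.186). KRT13 had 2 and 0 counts with CCL20 overexpression and 2 and 3 in the controls. The library with 0 counts allows up to 0.0611 FPKM, taking 3 counts as the limit that counting error leaves, and a difference in KRT13 was not detectable at this depth.

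**Figure D2:**
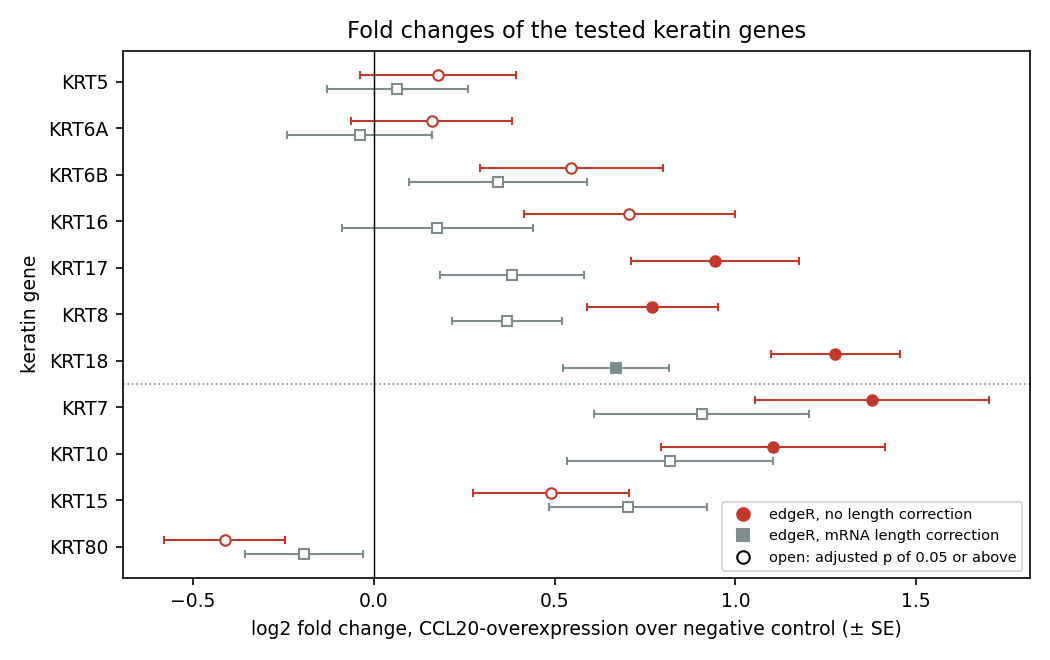
Log2 fold changes (CCL20-overexpression over negative control, ± SE) of the 7 members and, below the dotted line, the 4 other keratins that were tested, without and with the mRNA length correction; filled symbols passed an adjusted p of 0.05. KRT17, KRT8, KRT18, KRT7 and KRT10 passed without the correction, and KRT18 is the filled symbol with it.

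In all, edgeR's quasi-likelihood test called 3 of the 7 tested members higher and 0 lower, where 16.5% of 12168 genes were called higher and 15.7% lower. DESeq2 also called 3 higher and 0 lower, where 2075 of the 12168 genes were higher and 2052 lower. At an unadjusted p under 0.05 edgeR had 4 higher and 0 lower, and the share of all genes at that threshold is not given here. The median log2 fold change of the 7 was 0.71, against 0.002 over all genes tested. With the mRNA length correction 1 of 7 was higher and 0 were lower, against 3.32% and 3.42% of 10571 coding genes, and the median of the 7 was 0.34 against 0.001. Without a filter on low values 4 of the 10 members were higher (KRT16 being the added one) and 0 lower, against 9.09% and 8.51% of 29437 genes. On a TPM scale 1 of the 7 was higher and 0 were lower, against 4.11% and 37.1%. Leaving out single libraries moved the count of all genes. The members' count moved with it, except without CCL20-overexpression replicate 2, where it stayed as in the main test. Without control replicate 1 it was 1 of 7 higher and 0 lower, against 2.61% and 2.73% of all genes tested, and without control replicate 2 it was 1 and 0, against 3.74% and 4.39%. Without CCL20-overexpression replicate 1 it was 6 and 0, against 30.8% and 31.5%, and without replicate 2 it was 3 and 0, against 26.1% and 26.6%. The FPKM ranges of the groups stood apart for 5 of the 7 tested members, all of them higher, where 25.9% of all tested genes were higher and 46.9% lower without overlap. The members' mRNAs were 1390 to 2531 nt long, shorter than the median of 2998 nt for tested coding genes. Among the 7 tested members the fold change ran against mRNA length: KRT18 has the shortest mRNA (1491 nt) and the largest log2 fold change (1.28), and KRT5 the longest (2531 nt) and nearly the smallest (0.18). The Spearman correlation over these 7 genes of 1 gene family was -0.93, and -0.86 after the mRNA length correction, which left -0.07 over all coding genes.

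Which keratin leads depends on the length by which reads are divided. The exonic length behind the deposited FPKM counts every annotated exon and is 6881 nt for KRT8, against an mRNA of 1882 nt; for KRT5 it is 4292 nt against 2531 nt, and for KRT18 it is 3218 nt against 1491 nt. With counts divided by annotated mRNA length in place of exonic length, KRT8 stood at 729.5 and 899.5 in the CCL20-overexpression libraries and at 564 and 542 in the controls. KRT5 stood at 614 and 883 with CCL20 overexpression and at 744.5 and 792 in the controls on that scale. Per mRNA length KRT8 was therefore above KRT5 in both CCL20-overexpression libraries and below it in both controls, whereas in FPKM KRT5 was the higher in all 4. With the mRNA length correction KRT8 was above KRT5 only in CCL20-overexpression replicate 1. There KRT8 held 36.8% and KRT5 33.45% of the tested members' sum. In CCL20-overexpression replicate 2 KRT8 held 34.3% and KRT5 38.1%. In the controls KRT8 held 35.0% and 32.4%, and KRT5 41.6% and 43.15%. In FPKM the order over the 4 libraries was KRT5, KRT8, KRT18, KRT17, KRT6A, KRT16, KRT6B, KRT14, KRT19 and KRT13, with means of 447 for the first and 0.0381 for the last; the ranges of KRT8 and KRT18 overlapped, and so did those of KRT17 and KRT6A.

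Simple keratins made up more of the keratin mRNA in both CCL20-overexpression libraries than in either control. KRT8, KRT18 and KRT19 held 48.6% and 44.5% of the 10 genes' summed FPKM in the CCL20-overexpression libraries and 34.5% and 32.7% in the controls. KRT5 and KRT14 held 41.9% and 45.3% with CCL20 overexpression and 56.5% and 57.3% in the controls. Both shares separated the groups without overlap, by 12.9 percentage points up and 13.3 down, and the exact two-sided permutation test gave p = 0.333, the smallest that 2 against 2 libraries allow. A share within a library does not depend on how libraries are scaled. Per mRNA length the simple keratins held 61.5% and 57.6% with CCL20 overexpression and 48.6% and 46.3% in the controls. With the exonic length correction the difference was 15.01 points. With the mRNA length correction, over the 7 tested members, the simple keratins held 59.6% and 54.5% with CCL20 overexpression and 51.4% and 48.9% in the controls. The libraries of the groups were again apart, and the difference was smaller, at 6.88 points up for the simple keratins and 6.61 down for KRT5 (exact permutation p = 0.333 each). The stress keratins held 9.57% and 10.2% with CCL20 overexpression and 8.99% and 9.98% in the controls, a difference of 0.405 points within the spread (exact permutation p = 0.667) and of opposite sign with either length correction. Within that class KRT17 held 5.69% and 6.14% with CCL20 overexpression against 4.19% and 4.88% in the controls, and KRT6A held 3.08% and 3.31% against 4.12% and 4.32%. The summed FPKM of the 10 genes was 868 and 1152 with CCL20 overexpression and 779 and 816 in the controls.

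**Figure D3:**
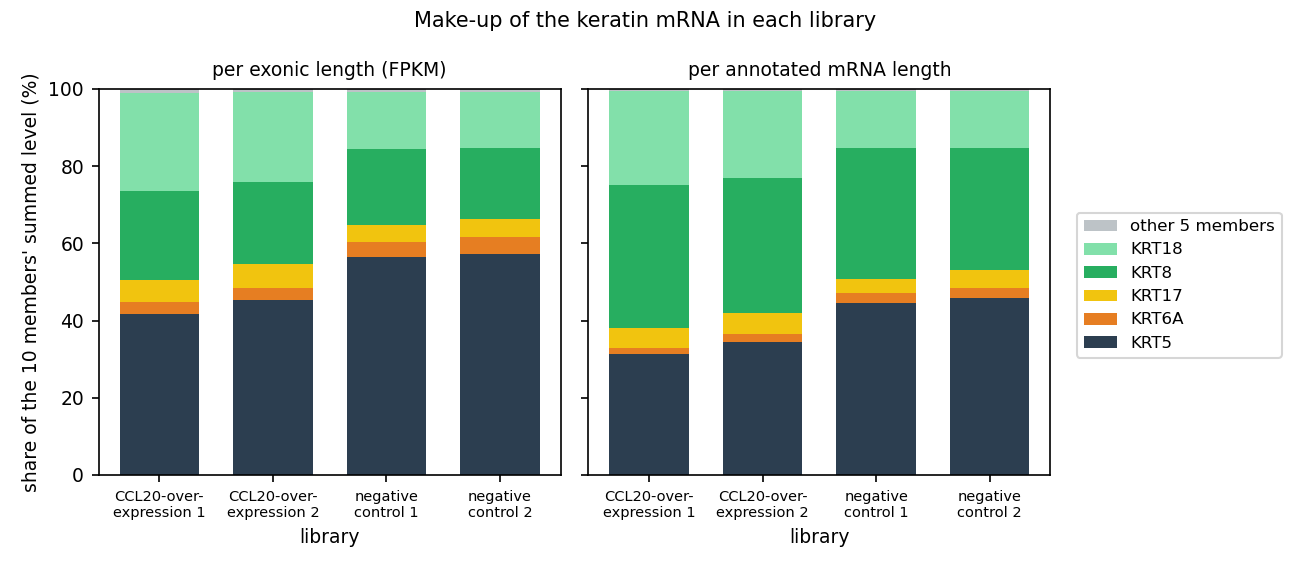
Share of the 10 genes' summed level held by each keratin in each library, in percent, from FPKM (left) and per annotated mRNA length (right). KRT5 held 41.7% and 45.2% of the summed FPKM in the CCL20-overexpression libraries and 56.4% and 57.2% in the controls, and KRT18 held 25.6% and 23.1% against 14.7% and 14.5%.

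The ratio between partner keratins also differed between the groups. KRT8 was 0.899 and 0.925 times the FPKM of KRT18 with CCL20 overexpression and 1.35 and 1.25 times in the controls, so the log2 ratio was lower by 0.51 on average (exact permutation p = 0.333, the smallest possible). With the exonic length correction, which uses the long exonic length of KRT8, this difference was 0.0843 and of opposite sign, and with the mRNA length correction it was -0.30. The ratio of KRT6A to KRT16 was 7.10 and 6.26 with CCL20 overexpression and 9.87 and 9.40 in the controls. The groups did not overlap for this ratio either (log2 difference -0.53, exact permutation p = 0.333), and the difference was -0.21 with the mRNA length correction. For KRT5 to KRT14 the log2 ratio was 8.35 and 8.90 with CCL20 overexpression and 9.16 and 9.36 in the controls, a difference of -0.64 that rests on 24 to 42 counts of KRT14 and was -0.36 without CCL20-overexpression replicate 1. For KRT6B to KRT17 it was -3.96 and -4.66 with CCL20 overexpression against -3.95 and -3.95 in the controls, and the difference of -0.36 was -0.0132 without CCL20-overexpression replicate 2 and -0.0140 with the mRNA length correction. For KRT8 to KRT19 it was 9.64 and 9.44 against 10.7 and 10.6, with 3 to 14 counts of KRT19. In every one of these 5 pairs the type II to type I ratio was lower on average with CCL20 overexpression, and in each pair the type I mRNA is the shorter; KRT8 is in 2 of the pairs, so they are not independent.

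**Figure D4:**
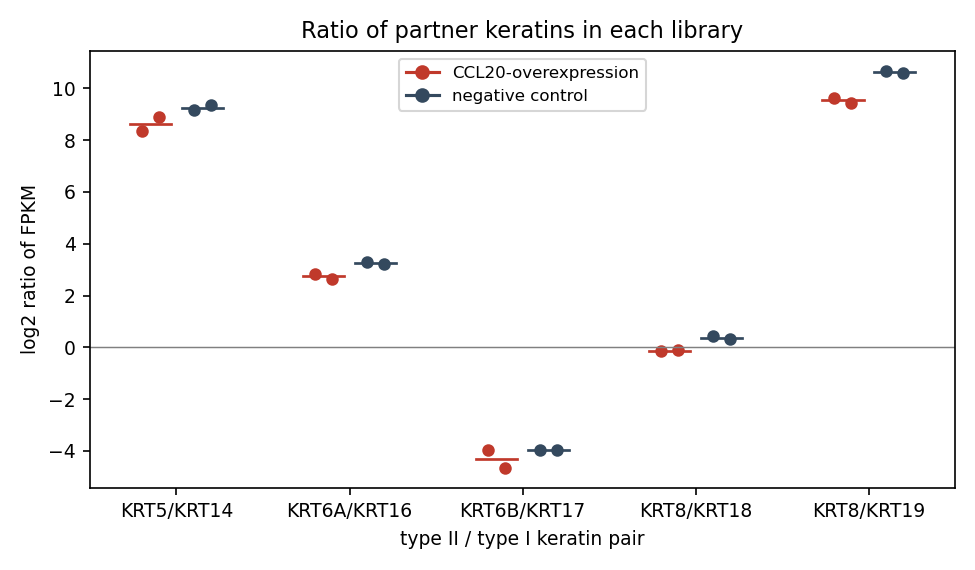
Log2 ratio of the FPKM of 5 pairs of type II and type I keratins in each library, with group means as lines. The CCL20-overexpression libraries lie below the controls in each pair, by a mean of 0.36 (KRT6B to KRT17) to 1.10 (KRT8 to KRT19) on the log2 scale.

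The rest of the keratin family was mostly silent. Of 32 other functional keratin genes listed, 4 had a mean of 1 FPKM or more. Of these 4, 2 rose, where 16.5% of 12168 genes were called higher. KRT7, 1 of these 2, reached the filter of 1 FPKM only through the CCL20-overexpression libraries (mean 1.94 FPKM, against 0.861 in the controls). The count is therefore not independent of the filter. With the replicate block 3 of the 4 rose, where 2840 of the 12168 genes did. Without the filter on low values 3 of the 32 were called higher, against 9.09% of 29437 genes. KRT20 was the added one, with 4 and 10 counts with CCL20 overexpression and 0 and 0 in the controls. Its call rests on few reads (log2 fold change 5.94, SE 2.25, edgeR adjusted p = 0.0476). It ended with the mRNA length correction (edgeR adjusted p = 0.1045). KRT80, a type II keratin, was the highest at 55.1 and 62.0 FPKM with CCL20 overexpression and 92.3 and 87.9 FPKM in the controls. Both CCL20-overexpression libraries were below both controls, and KRT80 did not pass (log2 fold change -0.41, SE 0.17, edgeR adjusted p = 0.0903), though it did on total counts (-0.63, edgeR adjusted p = 0.0194) and with TPM scaling (-0.91, edgeR adjusted p = 0.00669). KRT80 was called lower without CCL20-overexpression replicate 1 or 2 (-0.29 and -0.55, edgeR adjusted p = 0.0302 and 1.71e-05), and not without control replicate 1 or 2 (-0.38 and -0.44, edgeR adjusted p = 0.579 and 0.475). Corrected for mRNA length, its difference was less than 0.5 times as large (-0.19, edgeR adjusted p = 0.529). With the exonic length correction the KRT80 difference was larger and did not pass (-0.51, edgeR adjusted p = 0.0649). KRT10, the type I keratin of suprabasal epidermis, rose 2.15-fold, with 17.7 and 30.2 FPKM against 10.5 and 15.4 FPKM in the controls (edgeR adjusted p = 0.0293; log2 fold change 0.82, edgeR adjusted p = 0.133 with the mRNA length correction). KRT7, another simple type II keratin, rose 2.60-fold at a low level, with 1.54 and 2.33 FPKM against 0.750 and 0.971 FPKM in the controls (edgeR adjusted p = 0.0163; 0.91, edgeR adjusted p = 0.114 with the correction); it overlaps an antisense gene. Without control replicate 1 neither KRT10 nor KRT7 was called (edgeR adjusted p = 0.182 and 0.112). KRT15, a basal type I keratin, had 2.80 and 3.11 FPKM with CCL20 overexpression and 2.10 and 2.75 FPKM in the controls and did not pass (log2 fold change 0.49, edgeR adjusted p = 0.111). KRT15 passed with a replicate block (0.50, edgeR adjusted p = 0.0389), without CCL20-overexpression replicate 1 (0.60, edgeR adjusted p = 0.00105) and when corrected for mRNA length with no filter on low values (0.65, edgeR adjusted p = 0.0274), and its sign turned with TPM scaling (-0.007).

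Among genes that work with keratins, the linkers and binding partners had calls in both directions, as did all tested genes. Of 14 listed other intermediate filament genes 7 were tested and 0 passed in edgeR, where 16.5% of all tested genes were higher and 15.7% lower. With DESeq2 0 passed as well, where 2075 of 12168 genes were higher and 2052 lower. At an unadjusted p under 0.05 edgeR also had 0, and the share of all genes at that threshold is not given here. The list had 0 higher and 1 lower on total counts, with TPM scaling, with limma at either pseudocount and with the replicate block. In these settings 2438 to 4516 of the 12168 genes were called lower. Without the filter on low values 2 of the 14 were higher and 0 lower, against 9.09% and 8.51% of 29437 genes. With edgeR's own expression filter 1 of 9 was higher and 0 lower, where 2294 of 15846 genes were higher and 2016 lower. Leaving out either CCL20-overexpression library also changed the calls of the list. The mesenchymal filament VIM had a mean of 0.577 FPKM. Of 22 tested linkers and binding partners, 3 were higher and 6 lower, against 16.5% and 15.7% of all genes, with a median log2 fold change of -0.39. The lower ones by the test statistic were led by DSP (desmoplakin, which ties keratin to desmosomes), DST and PLEC (which tie it to hemidesmosomes) and the kinase CSNK1A1. DSP had 17.8 and 14.7 FPKM with CCL20 overexpression and 37.6 and 37.5 FPKM in the controls. With the mRNA length correction, DSP, DST and PLEC did not pass (edgeR adjusted p = 0.284, 0.968 and 0.802). CSNK1A1 did (-1.68, edgeR adjusted p = 0.0119), as did KRTCAP2, chosen after its value was seen (-1.56, edgeR adjusted p = 0.0317). In that fit 0 of the 22 were higher and 2 lower, against 3.32% and 3.42% of 10571 coding genes. The median of the list was then 0.001. With the exonic length correction DSP passed (-0.57, edgeR adjusted p = 0.0379) and CSNK1A1 did not (-0.59, edgeR adjusted p = 0.0666). Without control replicate 1 the counts were 0 higher and 0 lower (2.61% and 2.73% of all genes), and without control replicate 2 they were 0 and 1 (3.74% and 4.39%). Without CCL20-overexpression replicate 1 they were 5 and 10 (30.8% and 31.5%), and without replicate 2 they were 3 and 12 (26.1% and 26.6%). The higher ones, SFN, KRTCAP3 and TRADD, were named after their values were seen, and SFN encodes a binding partner of KRT17 in mouse keratinocytes and TRADD a partner of KRT18. None of these 3 passed with the mRNA length correction: SFN was at 0.15, TRADD at 0.27 and KRTCAP3 at -0.10, on the other side of 0 (edgeR adjusted p = 0.674, 0.360 and 0.792).

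Of 23 tested textbook regulators of keratin genes, 2 were higher and 6 lower, against 16.5% and 15.7% of all genes, with a median log2 fold change of -0.28. EHF, an ETS factor of epithelial cells, fell to 41.6 and 24.2 FPKM with CCL20 overexpression, against 158 and 146 FPKM in the controls (log2 fold change -2.02, SE 0.23, edgeR adjusted p = 0.00433). SP1, a general activator that binds many keratin promoters, fell to 5.26 and 4.41 FPKM, against 13.5 and 12.5 FPKM in the controls (-1.23, SE 0.17, edgeR adjusted p = 0.00433). Both passed again when corrected for mRNA length (EHF -2.59 and SP1 -1.24, edgeR adjusted p = 0.00695 and 0.00970), and they were the only 2 of the 23 to do so. That correction called 3.32% of 10571 coding genes higher and 3.42% lower. FOSL2 and GRHL2 fell without the correction (-0.995 and -0.86, edgeR adjusted p = 0.00532 and 0.0178) and did not pass with it (edgeR adjusted p = 0.134 and 0.195), while FOSL2 passed with the exonic length correction (-0.72, edgeR adjusted p = 0.0231). Without either control replicate the counts were 0 higher and 2 lower (at most 3.74% and 4.39% of all genes), and without CCL20-overexpression replicate 1 they were 5 and 11 (30.8% and 31.5%). HOXB7 and PITX1, the higher ones, were named after their values were seen, and neither passed with the mRNA length correction (0.20 and 0.24, edgeR adjusted p = 0.657 and 0.479).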

How the data were processed

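RNA sequencing counts from 4 libraries were used. Per the submitters' processing notes, HISAT2 and HTSeq 0.13.5 were used with GRCh38. The gene annotation and the strand setting of the counting were not given in the sources used here. The deposited counts are whole reads per gene, not normalized, per the file headers. In the authors' FPKM column, deposited beside the counts, those counts are divided by exonic length and library total. All 29437 genes matched GENCODE 29, which gave positions and mRNA lengths (the median over principal transcripts). Groups follow the labels.

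The quasi-likelihood test of edgeR 4.0.16 in R 4.3.3 (TMM scaling, two-sided, Benjamini-Hochberg over all genes) was run on the 12168 genes whose mean FPKM was 1 or more. The SE is the fold change over the square root of F. Alternatives were other scalings and filters, DESeq2 1.42.0, limma 3.58.1 on log2(FPKM + 1) and log2(FPKM + 0.1), a replicate block, leaving out each library, and length corrections, in which a natural spline (5 degrees of freedom) of each library's deviation in log2 CPM on length served as an offset. Fits were tested on simulated data. Replicates differed by more than sampling noise (chi-square per gene 38.0 in the CCL20-overexpression pair and 6.45 in the control pair), so none was counted as a duplicate. Coding sequences were aligned with MAFFT. Members and lists were chosen with earlier results of these data known. The genes named are the 10 members, other keratins that were called or among the 4 highest, the 4 called members of each other list with the largest test statistic, and the 4 keratin pseudogenes with the most counts. Limits at 0 counts cover counting error only.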

Additional observations from a re-analysis of the deposited data

How the results depend on the processing

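Of the members, KRT18 kept its direction and its call in all 16 settings, KRT8 kept its call in 12 and KRT17 in 10, and KRT6B was called in 0. KRT5 and KRT6A, not called in the main test, changed sign. KRT5 was at -0.043 on total counts, -0.06 with limma at either pseudocount, -0.337 on a TPM scale and -0.165 without CCL20-overexpression replicate 2, within -0.165 to 0.452 when leaving out a library. KRT6A was at -0.061 on total counts, -0.073 and -0.076 with limma, -0.227 and -0.039 with the exonic and mRNA length corrections, -0.354 on a TPM scale and -0.178 without CCL20-overexpression replicate 2, within -0.178 to 0.428. KRT15 was at -0.007 on a TPM scale. The difference in the share of stress keratins became -0.0896 points without control replicate 1 (within -0.0896 to 0.9001 when leaving out a library) and -1.38 and -0.279 with the exonic and mRNA length corrections, and that in the KRT8 to KRT18 log2 ratio became 0.0843 with the exonic length correction. The cause was not tested.

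Members called higher numbered 1 with the mRNA length correction and 1 on a TPM scale, and 1 to 6 when leaving out a library. Without CCL20-overexpression replicate 1, KRT5, KRT6A and KRT16 were added to the 3. Other keratins called higher numbered 1 and 0 with limma at pseudocounts of 1 and 0.1, 1 and 0 with the exonic and mRNA length corrections, 1 on a TPM scale, and 0 to 3 when leaving out a library. KRT80 made the count of lower ones 1 on total counts, with limma at both pseudocounts, on a TPM scale and with the replicate block, and 0 to 1 when leaving out a library.

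Genes called higher numbered 1251 on total counts, 1245 and 1176 with limma, 1077 and 351 with the exonic and mRNA length corrections, 500 on a TPM scale and 318 to 3742 when leaving out a library, against 2010. Genes called lower numbered 2985 on total counts, 750 and 362 with the length corrections, 4516 on a TPM scale, 2918 with the replicate block and 332 to 3837 when leaving out a library, against 1905. A fit without 1 library rests on the spread of the remaining pair and assumes that the lone library varies alike; the CCL20-overexpression pair was the wider. Same-numbered libraries deviated together with a correlation of 0.265 over genes, but 2 pairs do not show that the numbers pair the samples; with the replicate block 2840 genes were higher. Depth limits KRT13, KRT19 and KRT14, with 0 to 42 counts per library. The TPM scale, levels, shares and ratios per mRNA length or with the mRNA length correction, and the unfiltered mRNA length correction were chosen after seeing the data.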

Other observations

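The 20 listed KRT8 pseudogenes summed to 210 and 241 counts in the CCL20-overexpression libraries and 170 and 230 in the controls, or 0.996% and 0.844% of the KRT8 count against 1.17% and 1.26%. The 25 listed KRT18 pseudogenes summed to 31 and 41 counts with CCL20 overexpression and 55 and 52 in the controls, or 0.283% and 0.284% of the KRT18 count against 1.09% and 0.763%. The sums for KRT18 pseudogenes were lower with CCL20 overexpression while KRT18 itself was higher. The 3 listed KRT16 pseudogenes had 5 and 6 counts with CCL20 overexpression and 8 and 0 in the controls, or 3.50% and 2.36% of the KRT16 count against 7.27% and 0%. Most of the KRT8 total was KRT8P12, on chromosome 3, with 177 and 197 counts with CCL20 overexpression and 117 and 179 in the controls (log2 fold change 0.52, edgeR adjusted p = 0.0955). KRT87P, KRT8P33 and KRT8P3 followed, with 1 to 29 counts in a library. Without the filter on low values 0 of the 55 keratin pseudogenes were higher and 1 lower, against 9.09% and 8.51% of 29437 genes. The lower one, KRT90P, had 0 and 0 counts with CCL20 overexpression and 3 and 14 in the controls. Its call rests on few reads (log2 fold change -5.93, SE 2.19, edgeR adjusted p = 0.0405), and it was named after its value was seen.

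KRT5 ranked at 60 among the 29437 genes by mean FPKM, KRT8 at 181 and KRT18 at 189, while KRT14 ranked at 12428.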
